A study of Mus musculus with 6 samples.

Results

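The transcripts described here encode 9 transcription factors of neural stem cell quiescence and fate, taken by name from a table of 55416 Ensembl gene IDs. They are the nuclear factor I (NFI) genes Nfia, Nfib, Nfic and Nfix, the progenitor factors Nr2e1 and Pax6, the basic helix-loop-helix genes Olig1 and Olig2, and the repressor gene Rest. All 9 had counts in each library and passed the filter on low counts, which kept 12477 genes. The samples were mouse neural progenitor cells from embryonic brain, kept quiescent in medium with 10 ng/ml FGF2 plus 20 ng/ml Bmp4, and nothing in the labels gives an age, strain or genotype. In the EU group, 3 libraries, cells received 250 µM 5-ethynyluridine (EU), a uridine analogue that enters newly made RNA, on day 1 of quiescence. In the PBS group, also 3 libraries, cells received the vehicle. RNA was taken on day 8 from every culture, and RNA carrying EU was coupled to biotin and captured on streptavidin beads. RNA of the PBS group went through the same capture and measured binding without label.

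NFI proteins bind DNA as dimers through a shared amino-terminal domain and drive the switch from neuron to glia production in the developing brain. In mouse neural stem cells held quiescent with BMP4, NFI motifs are found at many active enhancers, and Nfix is needed for that state. Nr2e1 (also called Tlx) is an orphan nuclear receptor that keeps adult neural stem cells able to divide, and Pax6 sets progenitor identity in the cortex. Olig2 and Olig1 are known for the oligodendrocyte lineage, although Olig2 also acts in dividing progenitors. Rest silences neuronal genes outside neurons and helps to keep adult mouse neural stem cells quiescent. The comparison concerns messages made when quiescence began and captured 7 days later. It asks which of them formed a larger part of that RNA than of RNA captured without label.

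The 4 NFI genes are paralogs, so whether reads can be told apart decides what their separate counts mean. The stretch of 90 coding bases most alike in all 4 is shown here for that reason, with capitals at the 22 positions that vary among the genes. The sequences are from GENCODE M21 transcripts, on the coding strand, with T for U, and all lie in the coding exons.
Nfia: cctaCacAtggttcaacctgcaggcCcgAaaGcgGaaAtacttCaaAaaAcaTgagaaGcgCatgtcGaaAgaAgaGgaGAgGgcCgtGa
Nfib: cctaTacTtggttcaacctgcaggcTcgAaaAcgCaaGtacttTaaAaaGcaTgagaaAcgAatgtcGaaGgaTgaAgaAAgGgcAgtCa
Nfic: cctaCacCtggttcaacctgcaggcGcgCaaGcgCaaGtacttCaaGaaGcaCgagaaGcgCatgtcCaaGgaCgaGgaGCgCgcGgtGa
Nfix: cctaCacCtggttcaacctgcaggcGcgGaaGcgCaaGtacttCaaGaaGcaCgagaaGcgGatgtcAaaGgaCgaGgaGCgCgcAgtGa
The Nfia stretch covers coding bases 80 to 169 of 1527, those of Nfib and Nfic bases 83 to 172 of 1710 and of 1317, and that of Nfix bases 56 to 145 of 1482. Nfia and Nfib lie on chromosome 4, Nfic on chromosome 10 and Nfix on chromosome 8. Over the whole coding sequence, identity between pairs ran from 63.9% for Nfib and Nfix to 70.2% for Nfia and Nfix, and the longest run shared exactly by any pair was 32 bases, between Nfic and Nfix. Of all 75-base runs in the annotated transcripts of each gene, 0 occurred in another NFI gene.

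The number of counts behind the members differed greatly between the groups. EU libraries held 9564856 to 26479031 counts and PBS libraries 413181 to 729649, and 1 count was worth 0.0350 to 0.126 CPM in EU and 1.28 to 2.11 CPM in PBS. Levels are CPM, counts per 1000000 counts of a library, scaled by TMM factors, which even out differences in library composition. Scaling to a common size sets aside any difference in the total amount captured. Equal CPM thus means an equal part of the captured RNA, and does not show that a message was absent above background. The lowest EU count of every member exceeded its highest PBS count, from 2.43 times for Nr2e1 to 21.7 times for Nfix, but these ratios carry the depth of the libraries. Of the neural progenitor markers, Slc1a3 lay between 2773 and 3706 CPM over all 6 libraries and Sox2 between 249 and 405, whereas Prom1 did not exceed 4.74 CPM and Hes1 was at 0 in PBS replicates 1 and 3. Microglial markers summed to at most 1.58 CPM in any library, with 7 of 9 at 0 throughout. In bulk pulldowns, fewer cells with a message and less message per cell cannot be told apart.

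No member passed the main test, edgeR's quasi-likelihood test with group as the only term and Benjamini-Hochberg adjustment over all 12477 genes at 0.05. Over all genes that test called 0% higher in EU and 0.024% lower (3 genes). At an unadjusted p below 0.05, Olig1 and Nfix were higher and Nr2e1 was lower, 2 and 1 of 9 members, where 13% and 4.26% of all tested genes were. Without overlap, EU was above PBS for Olig1, Nfix and Nfic, 3 of 9 members against 21.8% of tested genes, and below it for 0 of 9 against 6.4%. The median log2 fold of the members was 0.26, with 6 of 9 positive, beside 0.15 for all tested genes, of which 56.5% were positive. The tested genes include some with 0 counts in every PBS library, which passed the filter through EU and can only be higher there. The shares over all tested genes are therefore not a neutral measure for the well-counted members. With libraries thinned to the lowest total, 5868 genes were tested and their median log2 fold was -0.039. The counts of members without overlap move with the scaling. By library totals alone, Nfix was above PBS without overlap and Nfia and Nr2e1 were below, while Olig1 and Nfic overlapped. By DESeq2 size factors, Nfix and Olig1 were above, and by upper-quartile factors Rest as well.

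The labels number the replicates 1 to 3 in both groups. Among genes of at least 50 CPM, libraries with equal numbers deviated together from their group means, so a fit with the replicate number as a block was also read. That fit called Olig1 and Nfix higher in EU, as did DESeq2 without the block. Both of these fits took p-values from a normal curve for the fold over its SE, with no allowance for the few libraries. Their calls are thus less strict than those of the group-only fit. Over all genes the block fit called 1.19% higher and 0.393% lower, and DESeq2 4.06% and 3.51%. With limma-voom, neither of these genes passed (adjusted p = 0.278 for Olig1 and 0.410 for Nfix).

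**Figure D1:**
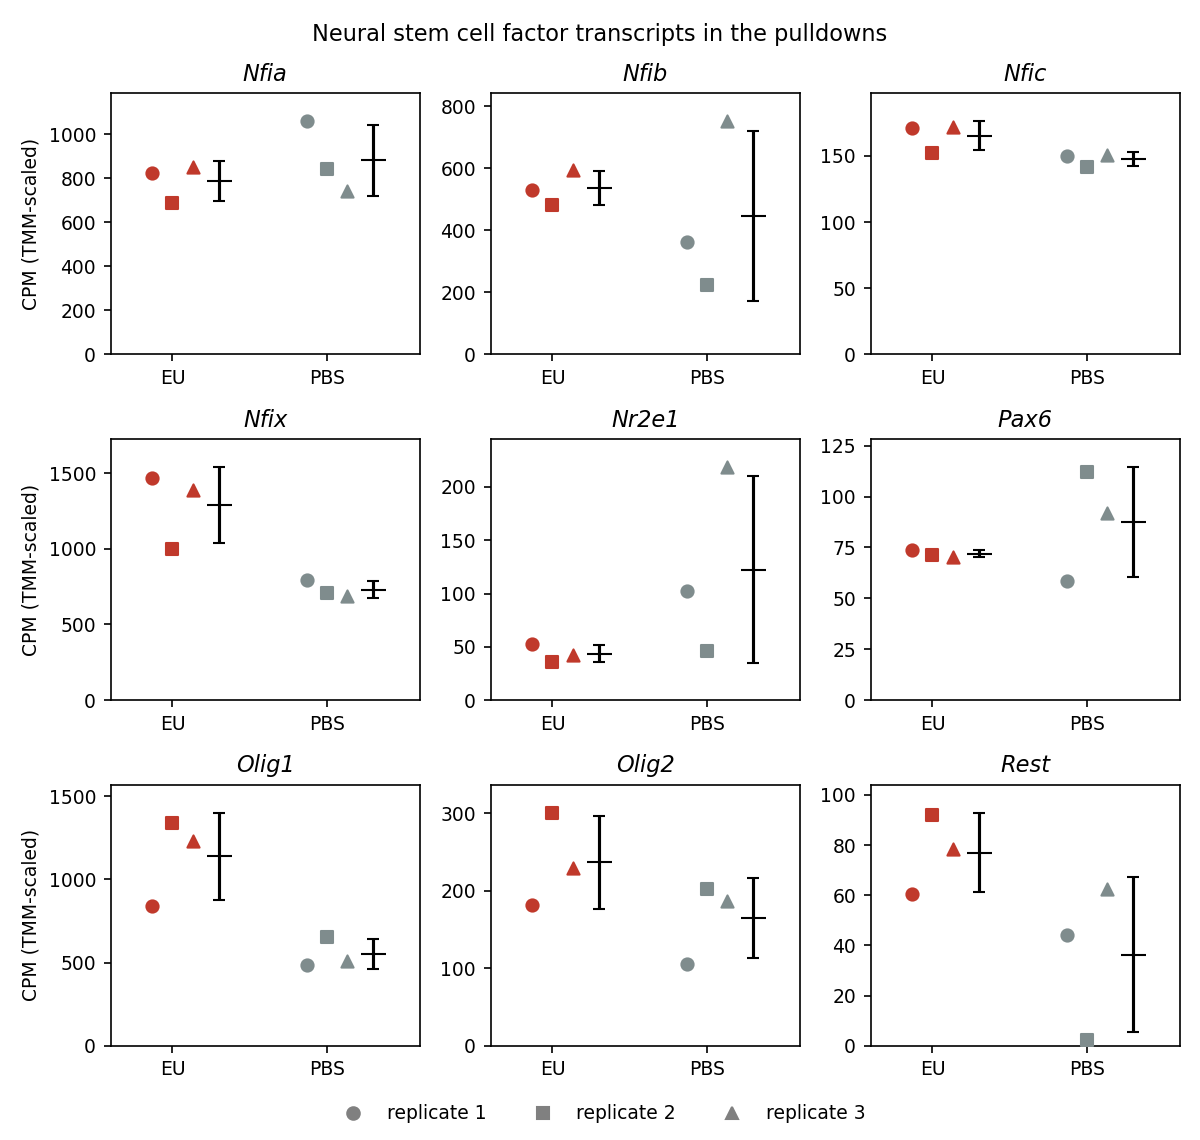
TMM-scaled CPM of the 9 genes in each library, with EU in red and PBS in grey, a symbol per replicate number, and the mean ± SD of 3 libraries in black; every vertical axis starts at 0. The EU points of Olig1 and Nfix lie above all PBS points, while Nfib, Nr2e1 and Rest have wide PBS ranges of 223.8 to 750.5, 46.4 to 218.6 and 2.11 to 62.6 CPM.

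Nfix was the most abundant NFI message by counts in EU. It measured 1471, 1000.2 and 1392 CPM in EU replicates 1, 2 and 3, and 794, 707 and 689 CPM in PBS replicates 1, 2 and 3. The lowest EU library was 1.26 times the highest PBS library, and EU replicate 2 stood below the other EU libraries. The log2 fold was 0.82 ± 0.22 (SE; edgeR adjusted p = 0.084), and 0.80 ± 0.23 with the replicate block (edgeR adjusted p = 0.033). That block p came from a normal curve, as stated above. The Nfix groups stayed apart under all 5 scalings tried, and the ratio was positive within each number, at log2 0.89, 0.50 and 1.01.

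Nfia, which starts gliogenesis together with Sox9 in the embryonic spinal cord of chick and mouse, did not differ beyond the spread of its replicates. It measured 825, 687 and 852 CPM in EU replicates 1 to 3 and 1059, 844 and 744 CPM in PBS replicates 1 to 3. The groups overlapped, with the highest value in PBS replicate 1 and the lowest in EU replicate 2. The log2 fold was -0.16 ± 0.22 (SE; edgeR adjusted p = 0.799), and without PBS replicate 1 it was 0.052.

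Nfib, which in mouse represses Ezh2 in the developing cortex, was even among EU libraries and uneven among PBS libraries. It measured 529, 483 and 592.5 CPM in EU replicates 1 to 3, and 363, 223.8 and 750.5 CPM in PBS replicates 1 to 3. PBS replicate 3 exceeded every EU library and the other PBS libraries lay below them all. Its log2 fold came to 0.26 ± 0.40 (SE; edgeR adjusted p = 0.830). It was 0.92 without PBS replicate 3 and -0.0015 without PBS replicate 2, so its size and sign changed with single background libraries.

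Nfic, the NFI gene known for tooth root formation in mouse, varied least among the PBS libraries. The coefficient of variation there was 3.52%, under the 9.21% to 12.2% that counting alone gives, so this evenness is not resolved. Its EU values were 170.9, 152 and 171.9 CPM and its PBS values 149.9, 141 and 150.9 CPM, in the order of replicates 1 to 3. The groups were apart by a factor of only 1.01. The log2 fold of 0.16 ± 0.21 (SE; edgeR adjusted p = 0.795) became -0.014 when libraries were scaled by their totals alone.

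Within the NFI family the makeup differed between the groups, and this ratio needs no scaling between libraries. Nfix made up 49.1%, 43.1% and 46.3% of the 4 genes' counts in EU replicates 1 to 3 and 33.6%, 36.9% and 29.5% in PBS replicates 1 to 3. The means were 46.1% ± 3.015 and 33.3% ± 3.69 (SD, n = 3 each; exact two-sided permutation p = 0.1, the smallest that 3 against 3 libraries allow, and 0.2 adjusted over the 4 genes). The share of Nfix was thus higher in 3 of 3 EU libraries than in any PBS library. The exact binomial 95% intervals did not meet either: the lowest EU library ran from 42.7% to 43.4% and the highest PBS library from 33.7% to 40.1%, counting error only.

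Shares add to 100% within a library, so they are not independent of each other. Nfia took a smaller share in EU, at 27.6%, 29.6% and 28.3% in EU replicates 1 to 3 against 44.8%, 44.1% and 31.9% in PBS replicates 1 to 3. All EU shares were below all PBS shares (28.5% ± 1.02 and 40.2% ± 7.25, SD, n = 3 each; exact permutation p = 0.1, adjusted 0.2). PBS replicate 3 stood nearest to EU, with an interval of 29.7% to 34.1% beside 29.2% to 29.9% in EU replicate 2, so these intervals overlapped slightly. Nfib held 17.7% to 20.8% in EU and 11.7% to 32.1% in PBS (exact permutation p = 1.0), and Nfic 5.70% to 6.56% and 6.34% to 7.38% (exact permutation p = 0.3). Summed over the family, the level was 2776 ± 392.4 CPM with EU against 2206 ± 251 CPM with PBS (SD, n = 3 each; exact permutation p = 0.3), and the groups overlapped.

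**Figure D2:**
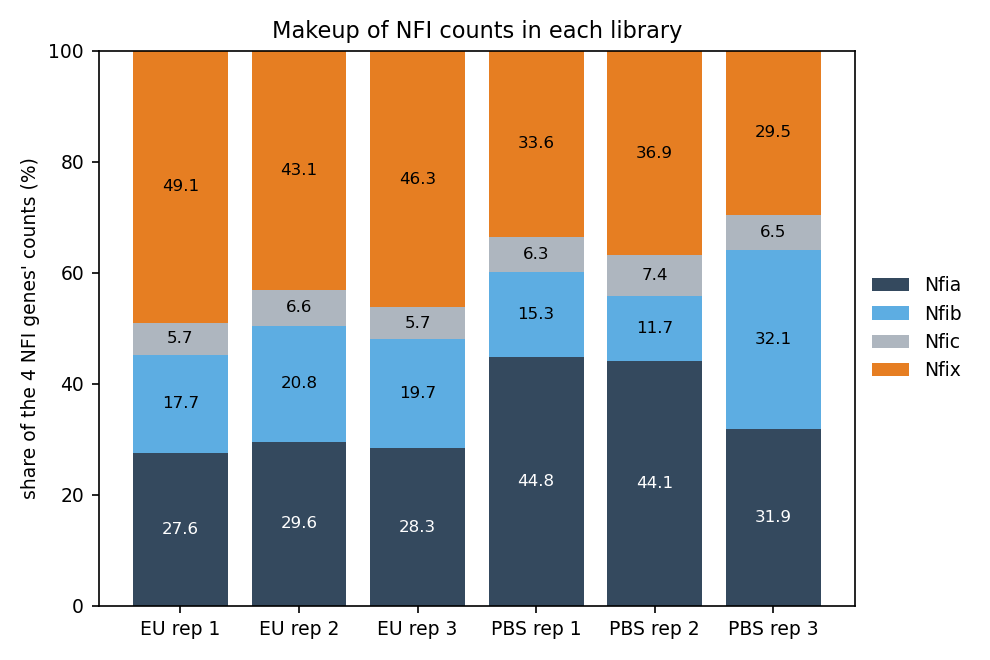
Share of each NFI gene in the counts of all 4, in percent, for each of the 6 libraries; each bar adds to 100%. Nfix (orange, top) takes 43.1% to 49.1% in EU and 29.5% to 36.9% in PBS, and Nfia (dark, bottom) takes less in every EU library than in any PBS library.

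Olig1 showed the largest positive fold with separated groups among the 9 genes. It measured 842, 1340 and 1232 CPM in EU replicates 1 to 3 and 488, 656.5 and 510.1 CPM in PBS replicates 1 to 3. Every EU library lay above every PBS library, the nearest pair by 1.28 times with TMM factors, and EU replicate 1 was lowest within its group. The log2 fold was 1.05 ± 0.25 (SE, edgeR adjusted p = 0.080). It was 1.03 ± 0.23 with the replicate block (edgeR adjusted p = 0.0020) and 0.94 ± 0.26 in DESeq2 (adjusted p = 0.011). The block and DESeq2 p-values came from a normal curve, as stated above.

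Olig2, next to Olig1 on chromosome 16, had a smaller fold and overlapping groups. It measured 181, 300.4 and 229 CPM in EU replicates 1 to 3 and 105.8, 202.7 and 187 CPM in PBS replicates 1 to 3. EU replicate 1 lay below PBS replicates 2 and 3, although each EU library exceeded the PBS library of its own number. Its log2 fold was 0.52 ± 0.32 (SE; edgeR adjusted p = 0.489), and 0.25 without EU replicate 2. Of the counts of both Olig genes, Olig1 took 82.8% ± 1.40 in EU and 77.3% ± 4.55 in PBS (SD, n = 3 each; exact permutation p = 0.2). That difference of 5.50 percentage points ran from 3.47 without PBS replicate 3 to 7.96 without PBS replicate 1.

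Other markers of oligodendrocyte precursors, a list of 8 without the Olig genes, did not share one direction. They summed to 209, 172 and 136 CPM in EU replicates 1 to 3 and 235, 409.5 and 329.9 CPM in PBS replicates 1 to 3, lower in every EU library. This separation rests on Gpr17, a receptor of committed precursors, at 33.0, 1.51 and 7.89 CPM in EU and 116.8, 114.0 and 124.0 CPM in PBS. Without it the sums were 176, 170 and 128 CPM in EU and 118, 296 and 206 CPM in PBS, and the groups overlapped. Nkx2-2, a homeobox gene of the lineage, was at 139 CPM in PBS replicate 2 and at most 6.91 CPM in any other library. The proteoglycan gene Cspg4 was higher in every EU library, at 70.4, 98.7 and 63.6 CPM against 25.3, 19.0 and 49.9 CPM. EU replicate 2, highest in both Olig genes, was the highest EU library for Cspg4 and Lhfpl3 (53.3 CPM) and the lowest of all 6 for Gpr17, Sox10 (1.23 CPM) and Pdgfra (9.84 CPM).

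Genes of dividing cells were also highest in EU replicate 2. The proliferation gene Mki67 measured 96.0, 435 and 94.9 CPM in EU replicates 1 to 3 and 25.3, 92.9 and 32.0 CPM in PBS replicates 1 to 3. Every EU library thus lay above every PBS library, but only narrowly, as the 92.9 CPM of PBS replicate 2 rests on 44 counts. Replicate 2 was the highest of each group. Top2a, a topoisomerase gene of dividing cells, measured 71.6, 314.7 and 78.4 CPM in EU and 39.5, 82.3 and 74.2 CPM in PBS, and its groups overlapped. The part of dividing cells in the Olig values was not tested. Markers of mature oligodendrocytes summed to 54.5 to 86.9 CPM in EU and 42.2 to 181.5 CPM in PBS, with Mobp at 0 in all 6 libraries.

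Nr2e1 was the member with the largest negative fold. It measured 52.3, 36.1 and 42.6 CPM in EU replicates 1 to 3, and 102.6, 46.4 and 218.6 CPM in PBS replicates 1 to 3, from 65, 22 and 171 counts. PBS replicate 3 stood far above the rest, and PBS replicate 2 lay below EU replicate 1, so the groups overlapped with TMM factors. The exact Poisson 95% interval of PBS replicate 2 was 29.1 to 70.3 CPM and that of PBS replicate 3 was 187 to 254 CPM, counting error only. EU over PBS, its log2 fold was -1.50 ± 0.52 (SE; edgeR adjusted p = 0.168). Without PBS replicate 3 it was -0.73 (edgeR adjusted p = 0.287).

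Pax6 was the steadiest of the 9 genes among EU libraries, at 73.7, 71.5 and 70.4 CPM in replicates 1 to 3. Its coefficient of variation there was 2.37%, beside a median of 12.2% over the 3408 genes of at least 50 CPM. Counting alone gives 4.13%, 2.21% and 2.55% in EU replicates 1 to 3, so this evenness cannot be told from counting error. PBS replicates 1 to 3 held 58.4, 111.9 and 92.1 CPM from 37, 53 and 72 counts, on both sides of the EU values. The log2 fold was -0.28 ± 0.32 (SE; edgeR adjusted p = 0.759), and -0.01 without PBS replicate 2. The antisense gene Pax6os1 held at most 8 counts in any library.

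Rest was present in all EU libraries and nearly missing from a single background library. EU replicates 1 to 3 held 60.6, 92.2 and 78.3 CPM, and PBS replicates 1 to 3 held 44.2, 2.11 and 62.6 CPM from 28, 1 and 49 counts. The 1 count of PBS replicate 2 has an exact Poisson 95% interval of up to 11.8 CPM, under the other PBS libraries. EU replicate 1 lay below PBS replicate 3, so the groups overlapped, and the log2 fold was 1.05 ± 0.74 (SE; edgeR adjusted p = 0.566). Without PBS replicate 2 it was 0.58, without PBS replicate 3 it was 1.72, and limma-voom gave 2.36.

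**Figure D3:**
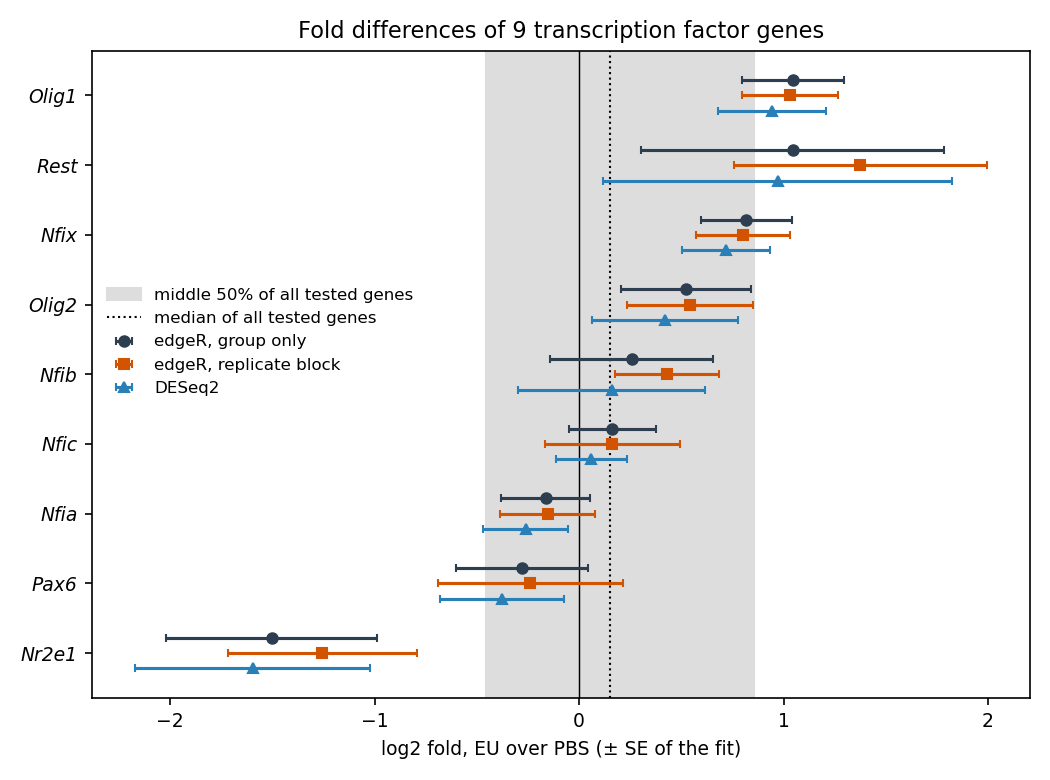
Log2 fold of EU over PBS for the 9 genes, with the standard error of the fit as bars, from edgeR with group only (circles), edgeR with the replicate block (squares) and DESeq2 (triangles); the grey band spans the middle 50% of all 12477 tested genes in the edgeR group fit and the dotted line their median of 0.15. Olig1 and Rest lie at 1.05, and Nr2e1 at -1.50 lies farthest to the left.

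Levels were ordered between genes per length, here as CPM per kilobase (kb) of exonic length. This order assumes that reads covered whole transcripts, which was not checked. The exonic length joins all annotated exons of a gene. For Pax6 it is 11694 bases, while its longest coding transcript has 4427, against 3711 and 3285 for Nr2e1 and 7222 and 7004 for Rest. The place of Pax6 in the order therefore depends on the length used. In EU, Olig1 stood highest at 526 ± 121 CPM per kb, followed by Nfix at 175 ± 34.3 and Olig2 at 93.6 ± 23.7 (SD, n = 3 each). Nfia followed at 72.4 ± 8.14, Nfib at 35.8 ± 3.68 and Nfic at 24.9 ± 1.65 CPM per kb. Nr2e1 at 11.8 ± 2.196, Rest at 10.7 ± 2.195 and Pax6 at 6.15 ± 0.15 CPM per kb closed the order. With this length, Olig2 and Nfia overlapped in their library ranges, as did Nr2e1 and Rest, and the other neighbours did not. In PBS, Olig1 was also first, at 255 ± 42.4 CPM per kb, and Nfix second at 99.3 ± 7.62. From Nfix down to Nfic, every PBS neighbour overlapped the next, as did Pax6 and Rest, so that the background libraries resolved less of the order.

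**Figure D4:**
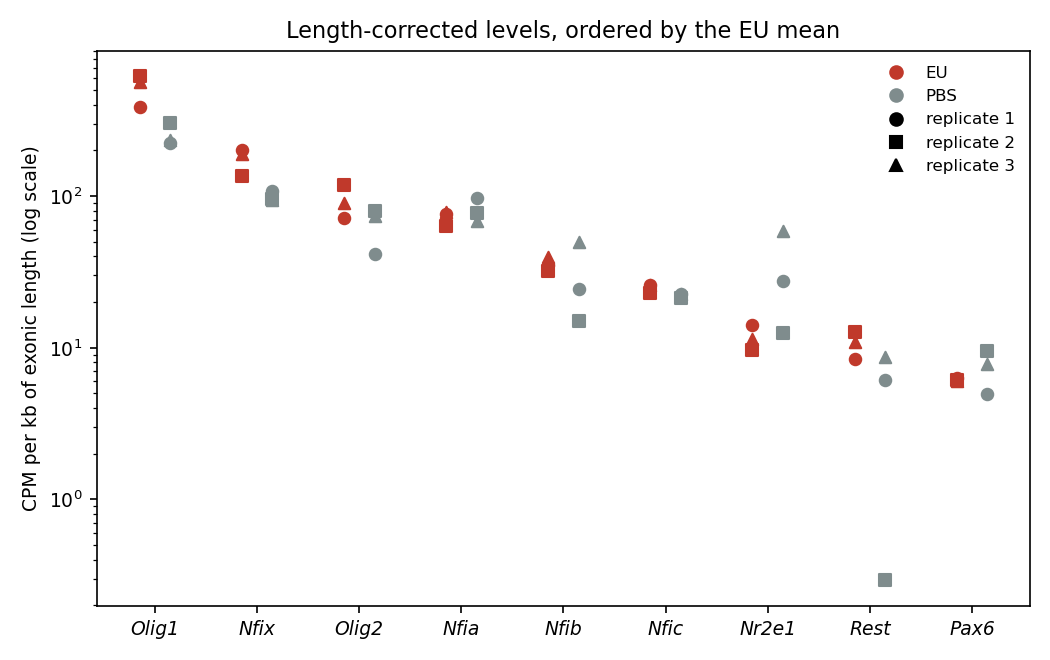
CPM per kb of exonic length on a log axis for the 9 genes in the order of their EU means, with EU libraries in red, PBS libraries in grey and a symbol per replicate number. Olig1 lies highest in both groups, and PBS replicate 2 of Rest lies far below all other points because it rests on 1 count.

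The 9 messages differ widely in length and base makeup. In the longest coding transcript, Olig1 had 2162 bases and Nfia 9526, around a median of 3379 over 11097 tested genes. Uridine, the base that EU replaces, made up 20.3% of Olig2, 20.5% of Olig1, 20.6% of Nfic and 21.7% of Nfix, against 28.0% of Nfib and 30.2% of Nfia, around a median of 24.6%. Among NFI genes, Nfix and Nfic are thus poor in uridine and Nfia and Nfib rich in it. Genes that overlap a member in the annotation held few counts next to it: E130114P18Rik, which shares 4 exonic bases with Nfia, had 5 to 426, and Gm15966, which shares 157 with Olig1, had 0 to 19.

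Other transcription factors of neural stem cells also had no member past the main test, which called 0% of all tested genes higher and 0.024% lower. Of 76 listed genes 65 were tested, 0 passed in either direction, and 17 lay above and 2 below PBS without overlap (26.2% and 3.08%, beside 21.8% and 6.4% of all tested genes). Their median log2 fold was 0.30, with 43 of 65 positive (66.2%, beside 56.5% of all tested genes). Hlf, a factor of quiescent stem cells in blood, had the smallest p, at 344, 197 and 397 CPM in EU replicates 1 to 3 and 71.0, 71.8 and 56.3 CPM in PBS replicates 1 to 3 (log2 fold 2.24 ± 0.32 SE; edgeR adjusted p = 0.080). Sox4, a factor of early neurons, was lower in all EU libraries, at 515, 413 and 650 CPM against 765.5, 815 and 726 CPM (edgeR adjusted p = 0.261). Zbtb20, an astrocyte and hippocampal factor, overlapped, with means of 610 and 728 CPM.

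Partners and presumed targets of the members were described in the same way, beside the same 0% and 0.024% called over all tested genes. Of 21 corepressor genes of the REST complex, all tested, 0 passed and 10 were positive, with a median log2 fold of -0.07. The positive share was 47.6%, beside 56.5% of all tested genes. In that list 4 genes lay above and 2 below PBS, which is 19.0% and 9.52%, where 21.8% and 6.4% of all tested genes did. Smarca4, the remodelling ATPase that acts with REST, measured 262 ± 15.8 CPM with EU against 183 ± 39.0 with PBS, and the histone chaperone gene Rbbp7 51.9 ± 9.13 and 79.9 ± 13.8 CPM (SD, n = 3 each). Of 24 neuronal genes known to carry REST sites, 13 were tested and 0 passed, with 7 positive (53.8%) and a median of 0.41. Without overlap, 2 of them lay above PBS and 0 below (15.4% and 0%). Bdnf, among those above, had 0 counts in the PBS libraries and 2.39, 6.27 and 6.38 CPM in EU replicates 1 to 3. In PBS 1 count was worth 1.28 to 2.11 CPM, so this separation lies near the counting floor. Gria2, a glutamate receptor gene, was the most abundant, at 366 ± 84.0 CPM with EU against 276 ± 69.5 with PBS, and its groups overlapped. The 9 neuron markers summed to 541 to 802 CPM over the 6 libraries, mostly from Map2, which lay between 507 and 612 CPM in all of them. Dcx, a gene of young neurons, ran from 14.1 to 236.8 CPM and was highest in PBS replicate 1, while Snap25, Stmn2, Nefl and Nefm were at 0 in all PBS libraries and at most 1.38 CPM in EU. Of 12 partner genes of Nr2e1 and Pax6, all tested, 0 passed and 4 were positive (33.3%, median -0.15). Without overlap, 2 of these lay above PBS and 0 below (16.7% and 0%, beside 21.8% and 6.4% of all tested genes). Bcl11a, among those above, likewise had 0 counts in the PBS libraries. It was at 3.64, 5.60 and 4.54 CPM in EU replicates 1 to 3, near the same floor.

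Genes of astrocytes tied to NFI by earlier work lay on both sides of PBS. All 15 were tested and 0 passed, where 0% of all tested genes were called higher and 0.024% lower. Of the 15, 8 were positive (53.3%, beside 56.5% of all tested genes), with a median log2 fold of 0.17. Without overlap, 2 lay above and 3 below PBS (13.3% and 20.0%, beside 21.8% and 6.4% of all tested genes). Gfap, the intermediate filament gene of astrocytes, measured 680, 78.5 and 272 CPM in EU replicates 1 to 3 and 7387, 1834.5 and 1578 CPM in PBS replicates 1 to 3. It was lower in every EU library and varied widely within both groups (log2 fold -3.39 ± 0.88 SE; edgeR adjusted p = 0.080). Apcdd1, counted among the genes above PBS, was at 2.51, 4.27 and 3.53 CPM in EU and had 0 counts in the PBS libraries. There 1 count was worth 1.28 to 2.11 CPM, so this separation lies near the counting floor. Aqp4, the astrocyte water channel, measured 841, 485 and 660 CPM in EU replicates 1 to 3 and 1900.4, 1226.5 and 1034 CPM in PBS replicates 1 to 3, lower in every EU library (log2 fold -1.07 ± 0.31 SE; edgeR adjusted p = 0.101). Slc1a2, a glutamate transporter gene, measured 2720 ± 975 and 2119 ± 122 CPM (SD, n = 3 each) and overlapped.

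For each member, the genes most like it were found by Pearson correlation of log2 CPM over the 6 libraries among 3407 other genes of at least 50 CPM, as a description. Nfix was nearest to Pfn1 (r = 0.99), an actin-binding protein gene, and Olig1 to Slc7a5 (r = 0.99), an amino acid transporter gene. Rest was nearest to Tln1 (r = 0.997) and Sox5 (r = 0.997), which share its low value in PBS replicate 2, at 16.9 and 2.11 CPM. Nr2e1 was nearest to Alas1 (r = 0.98), and Pax6 to Eri3 (r = 0.99). Among the members themselves, Nfic and Nfix (r = 0.94), Nfib and Rest (r = 0.85) and Olig1 and Olig2 (r = 0.80) were most alike, and Nfia and Olig2 most opposed (r = -0.87). All these values share 6 libraries in 2 groups, so a difference between the groups or a single library can set them.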

How the data were processed

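Whole-number read counts per Ensembl gene were deposited by the authors for 3 EU and 3 PBS libraries, with no normalization. The submitters' processing notes list bcl2fastq 2.20.0, UMI-tools 1.1.2, STAR 2.7.10b, featureCounts 2.0.1 and GRCm39, without roles. How strand and multiply matching reads were handled is not given in the sources used here. Symbols, exonic lengths and transcripts came from GENCODE M21, an earlier build, so no genome coordinates are given; 52083 IDs matched a symbol. Counts were tested with edgeR 4.0.16 in R 4.3.3 (filterByExpr, TMM factors). The SE of an edgeR fold was worked back from its test, as the absolute log2 fold over the square root of the F statistic. DESeq2 1.42.0 and limma 3.58.1 were alternatives, and coding sequences were aligned with MAFFT 7.526. Whether replicates were separate cultures is not in the labels, so the p-values reflect only variation among these libraries, possibly technical. Intervals cover counting error only.

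Members and lists were chosen with earlier results of these data known. Named genes were all members, the 3 smallest p-values and 3 highest means of each list where a result turned on them, and the 3 genes most like each member, of which the nearest are given; Mki67, Top2a, single marker genes and the precursor sum without Gpr17 were added after their values were seen. Replicate libraries were 12.1 or more times noisier than sampling alone (chi-square per degree of freedom), so none was a copy. Pairing was checked by correlating deviations from group means: equal numbers gave 0.165, 0.165 and 0.113 over 3408 genes of at least 50 CPM, and 0.0741, 0.0506 and 0.0338 over all 12477. The first set passes the threshold of 0.1 and the second does not, so pairing comes from the data alone and is uncertain. The test was also run on simulated counts, but the outcome is not given here. How many true differences it would miss in these libraries is therefore not stated.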

Additional observations from a re-analysis of the deposited data

How the results depend on the processing

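Group-only edgeR called 0 genes higher and 3 lower and no member. With the replicate block 148 were called higher and 49 lower, with DESeq2 506 and 438, and without a low-count filter 121 and 336; each of these 3 called 2 members, Olig1 and Nfix, both higher. Library size alone gave 3 and 40, DESeq2 size factors 7 lower, limma-voom 222 and 25, limma-voom with group weights 723 and 37, and libraries thinned to the lowest total 1 and 10, with no member called. Leaving out 1 library gave 0 higher and 0 to 11 lower: 11 without EU replicate 1, and 0 without any one of the PBS libraries, with no member called. The alternatives are not equally strict, because leaving out a library or thinning also changed which genes passed the filter. The block fit and DESeq2 also took their p-values from a normal curve, with no allowance for the few libraries.

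Olig1 ran from 0.85 to 1.25, Nfix from 0.63 to 0.96 and Nr2e1 from -2.01 to -0.73 in log2 fold over 16 alternatives, with no change of sign. Pax6 and Olig2 also kept their sign, as did Rest, which ran from 0.58 to 2.36. Leaving out 1 library, Nfia ran from -0.27 to 0.052 (positive only without PBS replicate 1) and Nfib from -0.0015 (without PBS replicate 2) to 0.92. Nfic was -0.014 with library size alone and -0.22 after thinning. The summed NFI level stayed higher in EU, at log2 0.15 to 0.44. The EU-minus-PBS share of Nfix was 10.9 to 14.6 percentage points when a library was left out, that of Nfia -15.9 to -9.47 and that of Nfic -1.02 to -0.41. The share of Nfib was -0.34, turned to 0.14 after thinning, and ran from -4.37 to 5.87 when a library was left out (0.52 without EU replicate 1, 5.87 without PBS replicate 3). The replicate block as a mean of within-number differences gives the same share differences by arithmetic, 12.8 points for Nfix and 5.50 points for Olig1. Only its p-value can differ. The exact sign-flip p was 0.25 for each of these genes, the smallest 3 pairs allow. Depth limits PBS values, where Rest, Nr2e1 and Pax6 rested on 1 to 171 counts.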
